A study of Mus musculus with 17 samples.

Results

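Transcript levels of 34 macrophage and monocyte genes were followed by RNA sequencing through mouse prostate and prostate tumours. The genes were taken by symbol, Emr1 being the older name of Adgre1 (F4/80) and Sfpi1 that of Spi1. All 34 were found among the 13905 genes kept from the genotype files and among the 39179 kept from the files of an inducible tumour model. All 34 passed the filter on low values in both sets. In the genotype set all 13905 genes passed it. The lowest mean of any feature in the genotype files was 14.1, so features with lower means were absent before this filter. The libraries came from C57BL/6 mice. Wild-type prostate at 12 months gave 3 libraries. Tumours with the Ctnnb1pc(ex3)delta/+ allele at about 12 months gave 3 (the Ctnnb1 group). A combined group of 3 libraries came from tumours at 6 to 8 months that carried the same allele plus a further engineered change. Loss of exon 3 from a single Ctnnb1 copy leaves a stable beta-catenin. The inducible tumours, at about 15 months, carried Ctnnb1 (ex3)delta/+ made with CreERT2, a Cre that drug treatment activates, together with the further change. They were mock treated in 2 libraries and given androgen deprivation therapy (ADT) in 3. The other 3 libraries of the series, from tumours of another genotype at about 14 months, enter only the fits named below as of 12 or 17 libraries. The Cre behind the "pc" alleles is not given in the sources used here, and nothing there says that libraries came from separate animals, so p-values measure the spread between these samples, which may be technical.

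Macrophages live on signals through the receptor Csf1r, whose ligands are Csf1 and Il34, and depend on the transcription factor PU.1, encoded by Spi1. Resident macrophages settle in tissues early and often carry scavenger receptors such as Cd163 and Mrc1, while monocytes enter from blood along the Ccl2 and Ccr2 axis and turn into macrophages in place. A state rich in Trem2, Gpnmb and Apoe, described in fatty and injured tissues and in tumours, is called lipid-associated. These are whole-tissue libraries, so more cells of a type and more RNA per cell cannot be told apart.

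Stretches before 5 members are shown, chosen with their matches known: C1qb, Itgam and Trem2, which rose in both genotype comparisons below, Gpnmb, which rose in combined tumours, and Cd163, which fell in Ctnnb1 tumours. Each line is the 250 bases before the RefSeq start of transcription in GRCm38.p6, 5′ to 3′ on the gene's strand. They lie at chr4:136886201-136886450 (C1qb, minus strand), chr7:128062390-128062639 (Itgam, plus), chr17:48346151-48346400 (Trem2, plus), chr6:124304401-124304650 (Cd163, plus) and chr6:49036268-49036517 (Gpnmb, plus). Capitals mark GAGGAA, the core letters of a PU.1 site, on either strand (TTCCTC on the other).
C1qb: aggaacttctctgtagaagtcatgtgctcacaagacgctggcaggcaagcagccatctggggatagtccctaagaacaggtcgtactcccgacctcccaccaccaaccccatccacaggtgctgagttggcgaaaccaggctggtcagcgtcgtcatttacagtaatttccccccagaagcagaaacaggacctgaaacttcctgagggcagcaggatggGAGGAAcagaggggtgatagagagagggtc
Itgam: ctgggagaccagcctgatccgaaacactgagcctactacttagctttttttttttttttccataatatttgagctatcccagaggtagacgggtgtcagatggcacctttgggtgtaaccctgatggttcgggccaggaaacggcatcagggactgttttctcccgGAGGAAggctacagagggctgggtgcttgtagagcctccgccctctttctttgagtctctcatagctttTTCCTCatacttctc
Trem2: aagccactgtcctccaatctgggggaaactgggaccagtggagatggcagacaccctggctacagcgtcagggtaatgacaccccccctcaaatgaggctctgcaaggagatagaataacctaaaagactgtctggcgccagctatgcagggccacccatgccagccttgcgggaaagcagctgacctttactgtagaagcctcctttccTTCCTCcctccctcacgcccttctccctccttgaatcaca
Cd163: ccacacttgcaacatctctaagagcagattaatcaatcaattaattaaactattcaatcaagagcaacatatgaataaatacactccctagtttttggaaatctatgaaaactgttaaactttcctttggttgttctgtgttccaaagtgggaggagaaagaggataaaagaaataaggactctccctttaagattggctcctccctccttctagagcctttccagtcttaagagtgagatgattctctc
Gpnmb: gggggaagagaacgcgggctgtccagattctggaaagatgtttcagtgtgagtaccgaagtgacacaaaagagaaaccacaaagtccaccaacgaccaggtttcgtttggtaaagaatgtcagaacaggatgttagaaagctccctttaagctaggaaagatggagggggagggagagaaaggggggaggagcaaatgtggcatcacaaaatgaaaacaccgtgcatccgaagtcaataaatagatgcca

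The letters GAGGAA were searched in the 250 bases before the start of every promoter in the table, where 24 of the 34 members have 27 promoters. Of these 27, 15 held a match (13 members), and 23.3% of all 32851 promoters did. The members with a match were Aif1, Apoe, C1qb, C1qc, Cd68, Ctss, Fcgr1, Fcgr3, Itgam, Laptm5, Marco, Mrc1 and Trem2. Itgam held 2 matches, starting 84 and 15 bases before the start. C1qb held 1 at 30 bases and Trem2 1 at 40 bases. The windows of Cd163 and Gpnmb held 0. Holding a match did not go with rising throughout, since Mrc1 holds one and rose in neither genotype comparison, while Gpnmb holds none and rose in one of them. The AP-1 letters TGACTCA, on either strand, stood before 2 members (Cd68 and Itgax) and in 4.46% of all promoters, and the E-box CACGTG before 0 members and in 6.02% of promoters.

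The values are read counts that the authors divided by a factor per library and rounded, called scaled counts below. They sum to 30591734 to 47248750 per library, totals that are not sequencing depths. Gaps among the low values show that 1 read was worth 1.23 to 1.30 scaled counts in the wild-type libraries, and the other genotype libraries show no such gaps. Tissue makeup differed between groups beside the genes described here. The summed smooth muscle markers (10 of 10 measured) ran from 162884 to 206259 in wild type, from 2443 to 4928 in the Ctnnb1 group and from 7823 to 23316 in the combined group. The seminal vesicle markers (7 of 7 measured) ran from 479326 to 4638336, from 205 to 5140 and from 44682 to 213638. Epithelial markers (6 of 6 measured) ran from 72125 to 84576, from 81902 to 114574 and from 108048 to 153739. Skeletal muscle markers (8 of 8 measured) also varied within groups. They summed to 137977, 44191 and 9568 in wild type, to 81, 67 and 9875 in the Ctnnb1 group and to 1163, 149 and 107 in the combined group. The part of these cells in the results was not tested. Every log2 change is on the scale of log2(scaled count + 1), SE is its standard error, and a gene is said to have risen or fallen where limma's moderated test gave a Benjamini-Hochberg adjusted p under 0.05 over all genes of the table.

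Macrophage genes were higher in both tumour groups. In Ctnnb1 tumours 24 of the 34 members rose and 3 fell, where 28.9% of all 13905 genes tested rose and 29.6% fell (58.5% either way). In combined tumours 30 rose and 1 fell, where 28.3% of all genes rose and 29.5% fell (57.8% either way). Marco is among these 30 but reached 1 scaled count in 3 libraries only through combined tumours, and 29 of the other 33 rose. The median log2 change of the members was 1.49 in Ctnnb1 tumours, against 0 over all genes, and 2.56 in combined tumours, against -0.01. Both comparisons use the same 3 wild-type libraries, and age differs together with genotype in combined tumours. Rescaling each library to an equal total moved the median of all genes from 0 to 0.49 in Ctnnb1 tumours and from -0.01 to 0.50 in combined tumours, and the share of higher calls among all calls from 49.4% to 78.9% in Ctnnb1 tumours and from 48.9% to 81.9% in combined tumours. The count of members that rose in Ctnnb1 tumours dropped to 14 without wild-type library 1, 2 or 3, to 15 without Ctnnb1 library 13 and to 13 without library 15, and stood at 24 without library 14. In the same settings 3, 2 or 1 fell, with 1 left without wild-type library 3 or Ctnnb1 library 13 or 15.

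Of the 24 members that rose in Ctnnb1 tumours, 13 did so whichever wild-type or Ctnnb1 library was left out. These were Arg1, C1qa, C1qb, C1qc, Cd14, Cd68, Ctss, Cx3cr1, Fcgr1, Fcgr2b, Itgax, Msr1 and Trem2. The other 11 lost the call without at least 3 of these 6 libraries. Combined libraries share the spread of this fit, and none of them was left out. In the fit of the wild-type and Ctnnb1 libraries alone, 27 of 33 members rose and 3 fell. Of 13904 genes tested in that fit, 4432 rose and 4487 fell. In combined tumours 28 of the 30 kept theirs without each wild-type or combined library in turn, the exceptions being Ccr2 and Marco. Some libraries stood low for most members. Combined library 12 was the lowest of its 3 for 33 of the 34 members, with a median log2 difference of -1.75 from the other 2. Ctnnb1 library 14 was the lowest of its group for 28 members, by a median of -0.51. Fibroblast markers (8 of 8 measured) moved with the first of these, at a sum of 307602, 627783 and 47497 in combined libraries 10, 11 and 12, and their part was not tested. Of these 8 markers, 6 rose in combined tumours, as did 6 of 8 endothelial ones, beside 28.3% of all genes. The endothelial sums were 5668 to 7029 in wild type and 8160 to 14371 in combined tumours. For Ctnnb1 tumours the fibroblast markers summed to 31945, 33488 and 26275.

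**Figure D1:**
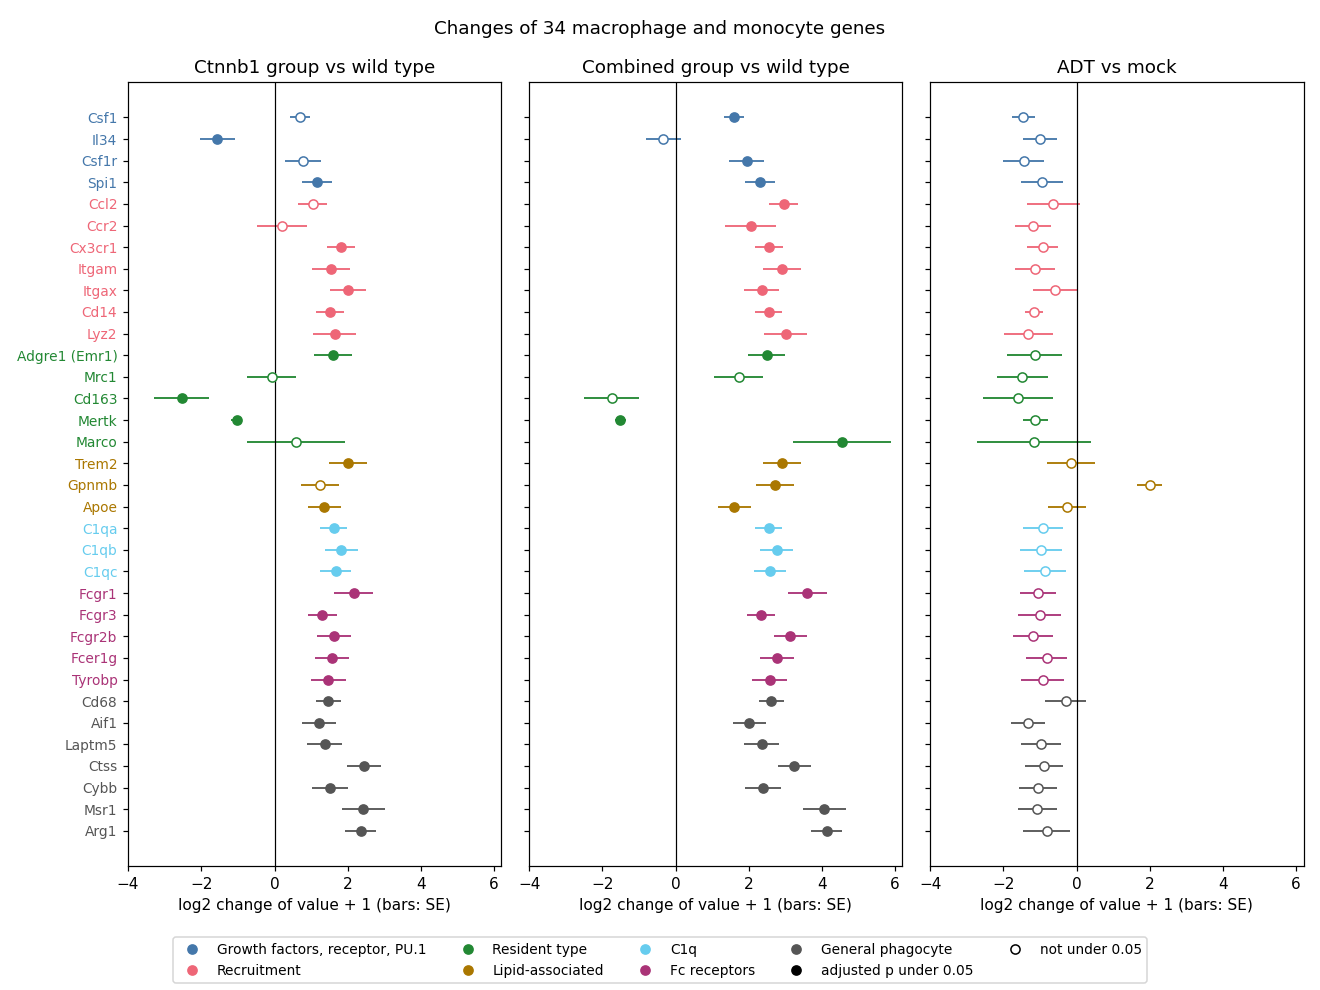
Log2 change (x axis, with SE as bars) of each of the 34 genes (y axis, coloured by role) in Ctnnb1 tumours and combined tumours against wild type and in ADT against mock; filled points have an adjusted p under 0.05. Most points lie right of 0 in both tumour groups, with Il34, Cd163 and Mertk to the left in both and Mrc1, at -0.07, in the first, and Gpnmb alone lies right of 0 after ADT. Marco is drawn filled in combined tumours, although it passed the filter on low values only through that group.

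Among the growth signals, the receptor and its ligands did not move alike. Csf1r read 768, 829 and 965 in the wild-type libraries, 1367, 1364 and 1704 in Ctnnb1 tumours and 5609, 4872 and 1260 in combined tumours. Every tumour library lay above every wild-type one. The change was 0.79 (SE 0.49, adjusted p 0.194 by limma) in Ctnnb1 tumours, where it did not pass the test, and 1.94 (SE 0.49, adjusted p 0.00956) in combined tumours. In a fit of the wild-type and Ctnnb1 libraries alone the first had an adjusted p of 0.00187, and with equal totals 0.0406. For Csf1, the broadly made ligand, wild type gave 694, 566 and 570, with 979, 735 and 1318 in Ctnnb1 tumours (log2 change 0.69, SE 0.27, adjusted p 0.0548) and 2286, 2198 and 1258 in combined tumours (1.60, SE 0.27, adjusted p 0.00133). The groups did not overlap in either comparison. The adjusted p of Csf1 in Ctnnb1 tumours was 0.0261 without Ctnnb1 library 14, 0.00431 with equal totals, 0.0275 in the fit of those 2 groups alone and 0.0454 in a fit of 12 libraries.

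Il34, the other ligand, which keratinocytes and neurons are known to make, went the other way. It read 108, 74 and 89 in wild type and 29, 36 and 25 in Ctnnb1 tumours, a mean of 30.0 ± 5.57 against 90.3 ± 17 (SD, n = 3 each). The groups did not overlap, and the fall was 3.01-fold in means (log2 change -1.56, SE 0.48, adjusted p 0.0233 by limma). The adjusted p was 0.0746 without wild-type library 1, 0.0579 without wild-type library 3, 0.0592 without Ctnnb1 library 13, 0.0682 without library 15 and 0.0707 with equal totals. In combined tumours Il34 read 90, 124 and 31 and overlapped wild type (log2 change -0.34, SE 0.48, adjusted p 0.568). Spi1 rose in both, from 85, 80 and 87 to 198, 148 and 231 and to 666, 553 and 200. Its log2 change was 1.16 (SE 0.41, adjusted p 0.0397) in Ctnnb1 tumours and 2.31 (SE 0.41, adjusted p 0.00182) in combined tumours. In the former the call of Spi1 held only without Ctnnb1 library 14 among the 6 libraries left out in turn.

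Of the other 11 genes for myeloid growth factors, their receptors and transcription factors, 9 were tested and 4 rose in each comparison, with 0 falling, beside 28.9% and 28.3% of all genes that rose. Runx1, a transcription factor of blood and epithelial cells, had the smallest p of the list and read 502, 427 and 307 in wild type, 2393, 1920 and 2277 in Ctnnb1 tumours and 2796, 2683 and 2687 in combined tumours. Those libraries form narrow sets that do not overlap wild type. Cebpb, a factor of myeloid differentiation, rose by 1.53 (SE 0.20) and 1.75 (SE 0.20), with adjusted p of 0.000393 and 0.000205 in limma.

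The recruitment genes rose in part in Ctnnb1 tumours (5 of 7) and throughout in combined tumours (7 of 7). Ccl2, the chemokine that draws monocytes, read 20, 21 and 26 in wild type, 55, 38 and 49 in Ctnnb1 tumours and 231, 261 and 93 in combined tumours. Both tumour groups lay above wild type. The change was 1.04 (SE 0.40, adjusted p 0.0536 by limma) in Ctnnb1 tumours and 2.95 (SE 0.40, adjusted p 0.000477) in combined tumours. In Ctnnb1 tumours the adjusted p of Ccl2 was 0.0088 with equal totals, 0.0452 without a trend in the prior variance and 0.0186 in the fit of those 2 groups alone. Its receptor Ccr2 read 172, 202 and 132 in wild type, 155, 290 and 157 in Ctnnb1 tumours and 1991, 770 and 217 in combined tumours. The Ctnnb1 libraries overlapped wild type (log2 change 0.21, SE 0.69, adjusted p 0.812), and the combined ones spread widely but stayed above it (2.05, SE 0.69, adjusted p 0.0322). For Ccr2 in combined tumours the adjusted p was 0.0727, 0.0601 and 0.0906 without wild-type library 1, 2 and 3, 0.0775 without combined library 10 and 0.0761 without library 11.

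Cx3cr1, the fractalkine receptor of patrolling monocytes and of several resident macrophages, read 145, 179 and 176 in wild type and 590, 475 and 709 in Ctnnb1 tumours. It was at 1477, 1311 and 491 in combined tumours. The rises were 3.55-fold (log2 change 1.81, SE 0.38, adjusted p 0.00413) and 6.56-fold (2.56, SE 0.38, adjusted p 0.000721). Itgax (CD11c), an integrin shared with dendritic cells, went from 118, 99 and 123 to 449, 241 and 881 and to 979, 523 and 379. Itgam (CD11b), which neutrophils also carry, went from 182, 194 and 263 to 573, 429 and 939 and to 2616, 2359 and 650. Neither gene's tumour libraries overlapped wild type. The log2 change of Itgam was 1.54 (SE 0.52, adjusted p 0.0326) and 2.91 (SE 0.52, adjusted p 0.00177), and in Ctnnb1 tumours its call held only without library 14. Cd14, a co-receptor for bacterial lipopolysaccharide, rose by 1.52 and 2.54, and Lyz2, the lysozyme of myeloid cells, by 1.65 and 3.01. Lyz2 shares near-identical sequence with Lyz1, so its reads may be split between them, and its call in Ctnnb1 tumours too held only without library 14.

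Other genes of recruited monocytes followed. Of 17 tested, 10 rose and 2 fell in Ctnnb1 tumours and 14 rose and 1 fell in combined tumours, beside 28.9% and 28.3% of all genes that rose. The cytokine gene Il1b read 10, 14 and 6 in wild type, 144, 76 and 209 in Ctnnb1 tumours and 485, 649 and 260 in combined tumours. Every tumour library stood far above the highest wild-type one. Its log2 changes were 3.66 (SE 0.49, adjusted p 0.000408) and 5.37 (SE 0.49, adjusted p 6.77e-05) in limma. Neutrophil markers moved in the same direction, with 3 of 6 tested higher in Ctnnb1 tumours and 6 of 6 in combined tumours. The list holds 9, and those missing from the genotype genes, where low features were absent beforehand, could not be tested. Their summed level was 96 to 141 in wild type, 221 to 606 in Ctnnb1 tumours and 785 to 2027 in combined tumours, and none of the 6 measured was at 0 throughout. Csf3r, the neutrophil growth factor receptor, rose by 2.25 (SE 0.41, adjusted p 0.00206 by limma) and 3.75 (SE 0.41, adjusted p 0.000161). The part of neutrophils in the levels of Itgam, Cd14 and the Fc receptors was not tested.

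**Figure D2:**
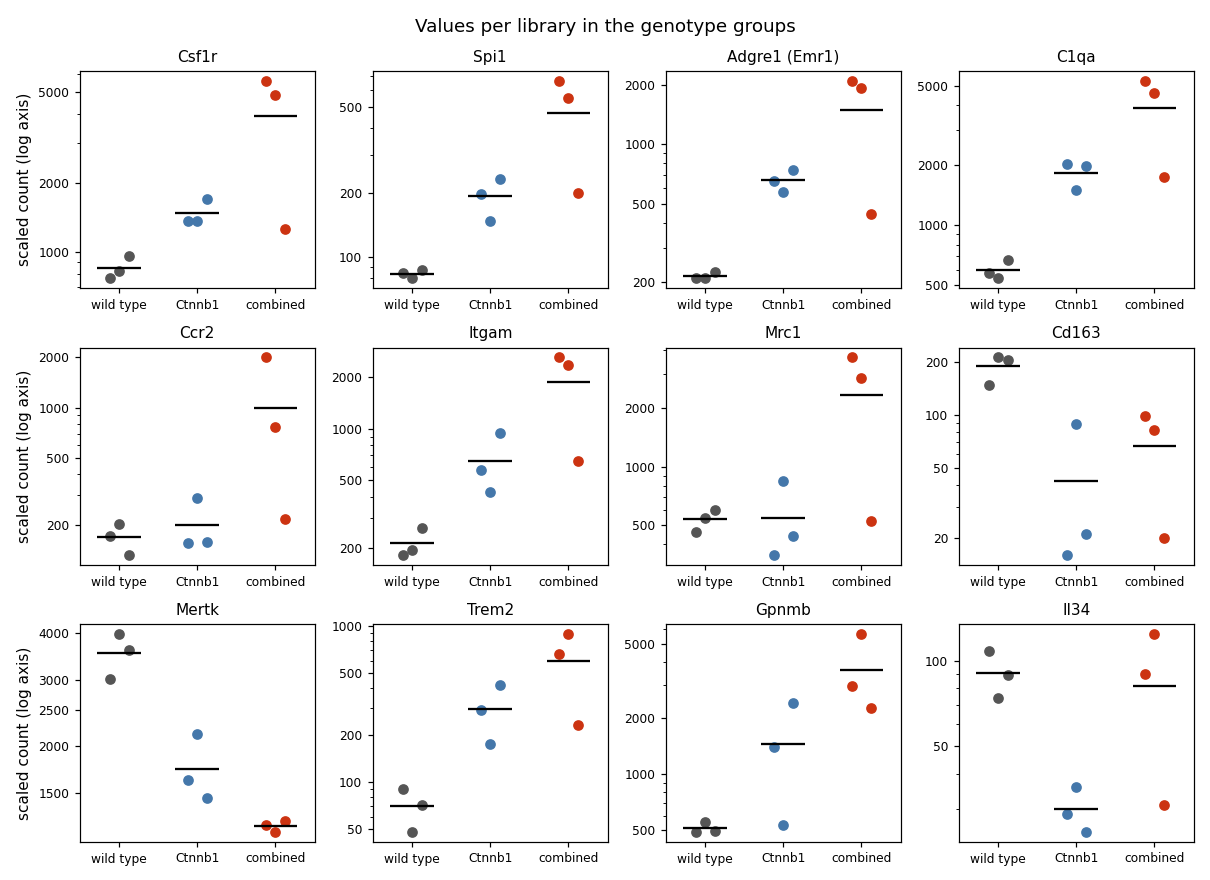
Scaled counts (log axis) of 12 of the genes in each of the 9 genotype libraries, as points by group with the group mean as a bar. In 11 of the 12 panels the lowest combined point is library 12, the exception being Mertk. Mertk and Cd163 lie below wild type in all 6 tumour libraries.

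The resident-type genes did not move as a group. Adgre1 (Emr1), the F4/80 antigen of mouse macrophages, read 211, 210 and 225 in wild type, 653, 576 and 742 in Ctnnb1 tumours and 2095, 1921 and 446 in combined tumours. It rose 3.05-fold (log2 change 1.60, SE 0.51, adjusted p 0.0267 by limma) and 6.91-fold (2.49, SE 0.51, adjusted p 0.0036). In Ctnnb1 tumours the call of Adgre1 held only without library 14. Mrc1, the mannose receptor CD206, read 460, 549 and 601 in wild type, 352, 847 and 441 in Ctnnb1 tumours and 3649, 2864 and 527 in combined tumours. Both tumour groups overlapped wild type, and neither passed the test (log2 change -0.07, SE 0.67, adjusted p 0.935, and 1.73, SE 0.67, adjusted p 0.0545). Without combined library 12 the change of Mrc1 in combined tumours was 2.60 (adjusted p 0.000562), with equal totals it was 2.24 (adjusted p 0.015), and in a fit of 12 libraries its adjusted p was 0.0459.

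Cd163, the scavenger receptor for haemoglobin and haptoglobin (GRCm38 chromosome 6, 124304656 to 124330527), was at 148, 211 and 205 in wild type. It was at 16, 89 and 21 in Ctnnb1 tumours and at 98, 82 and 20 in combined tumours. All 6 tumour libraries lay below all 3 wild-type ones. Its mean was 42.0 ± 40.8 against 188 ± 34.8 (SD, n = 3 each) in Ctnnb1 tumours, 4.48-fold lower (log2 change -2.53, SE 0.75, adjusted p 0.0189 by limma). The combined mean of 66.7 ± 41.2 was 2.82-fold lower and did not pass the test (log2 change -1.75, SE 0.75, adjusted p 0.0746). In Ctnnb1 tumours the adjusted p of Cd163 was 0.0566 and 0.054 without wild-type library 2 and 3, and 0.0668 and 0.0623 without Ctnnb1 library 13 and 15. For combined tumours its change was -1.04 without library 12.

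Mertk, a receptor kinase with which phagocytes take up dying cells and which epithelial cells may also use, read 3011, 3969 and 3615 in wild type. It fell to 1622, 2150 and 1456 in Ctnnb1 tumours and to 1237, 1183 and 1265 in combined tumours. Neither tumour group overlapped wild type, and the falls were 2.03-fold and 2.88-fold in means. The log2 changes were -1.03 (SE 0.15, adjusted p 0.000662) and -1.51 (SE 0.15, adjusted p 0.000101), and both calls held without any single library of the groups compared. Per kilobase of exon, Mertk ranked 3 of the 34 members in wild type (815 ± 112 scaled counts per kb, SD, n = 3), behind Apoe (4113 ± 350) and Lyz2 (1356 ± 107). It ranked 11 in Ctnnb1 tumours and 20 in combined tumours, where Apoe and Lyz2 still led. Marco, a scavenger receptor of marginal zone and alveolar macrophages, read 0, 0 and 1 in wild type, 0, 0 and 6 in Ctnnb1 tumours and 80, 77 and 3 in combined tumours. Combined libraries 10 and 11 hold nearly all of it, and no fold is given against a group with 1 scaled count in all. Marco passed the filter on low values only through the combined libraries, so its fitted change is not given as a result. It ran from 2.39 to 5.28 with the number added before the logarithm, and Marco lost its call without wild-type library 1 or 2 or combined library 10 or 11.

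Of 18 other genes of resident macrophages, 14 were among the genotype genes and were tested. Of these 14, 5 rose and 2 fell in Ctnnb1 tumours and 7 rose and 1 fell in combined tumours. The first share lies near the 28.9% of all genes that rose in Ctnnb1 tumours, and 28.3% rose in combined tumours. Stab1, a scavenger receptor also of sinusoidal endothelium, read 845, 774 and 827 in wild type, 2017, 1758 and 2534 in Ctnnb1 tumours and 5094, 5565 and 2195 in combined tumours. Siglec1, the sialic acid receptor CD169, went from 49, 82 and 87 to 1209, 882 and 252 in combined tumours (log2 change 3.18, SE 0.56, adjusted p 0.00166). In Ctnnb1 tumours Siglec1 rose too, to 191, 307 and 380 (1.98, SE 0.56, adjusted p 0.0158 by limma). Cbr2, a carbonyl reductase, fell in Ctnnb1 tumours from 10885, 9287 and 7385 to 1035, 316 and 916 (log2 change -3.76, SE 0.58, adjusted p 0.000893). Lyve1, the other gene of this list that fell there, went from 348, 380 and 354 to 36, 175 and 51 (-2.37, SE 0.83, adjusted p 0.0371 by limma). These lists also hold genes that stromal or epithelial cells use, and the cells behind each value were not identified.

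The lipid-associated genes rose for 2 of 3 in Ctnnb1 tumours and for 3 of 3 in combined tumours. Trem2, a lipid receptor of macrophages (GRCm38 chromosome 17, 48346401 to 48354147), read 91, 48 and 71 in wild type, 291, 176 and 418 in Ctnnb1 tumours and 661, 886 and 233 in combined tumours. Every tumour library lay above wild type. The rise was 4.21-fold (log2 change 2.02, SE 0.52, adjusted p 0.0107 by limma) and 8.48-fold (2.91, SE 0.52, adjusted p 0.00182). Gpnmb, a lysosomal glycoprotein of lipid-laden macrophages and pigment cells, read 490, 552 and 496 in wild type, 1400, 533 and 2427 in Ctnnb1 tumours and 2980, 5646 and 2279 in combined tumours. Ctnnb1 library 14 sat inside the wild-type range, so these groups overlapped (log2 change 1.25, SE 0.52, adjusted p 0.0684). Without that library the change of Gpnmb was 1.85 (adjusted p 0.0056), and with equal totals 1.74 (adjusted p 0.0158). It rose 7.09-fold in combined tumours (2.72, SE 0.52, adjusted p 0.00255). Apoe, the lipid carrier that many cell types make, rose 2.59-fold and 3.57-fold, from 9315, 7935 and 9130 to 25424, 17295 and 25732 and to 34169, 48214 and 11693, and in Ctnnb1 tumours its call held only without library 14.

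Of 16 other genes of lipid-associated macrophages 6 rose in Ctnnb1 tumours and 11 in combined tumours, with 0 falling. The former share too lies near the 28.9% of all genes that rose there, and 28.3% rose in combined tumours. In Ctnnb1 tumours 9 of the 16 lay wholly above wild type and 3 wholly below, as did 35.9% and 35.6% of all genes. Cd36 had the lowest change there, from 1123, 653 and 1263 to 260, 374 and 426. It did not pass the test (log2 change -1.49, SE 0.79, adjusted p 0.134 by limma). Spp1, the secreted protein osteopontin that tumour cells can also make, read 46, 27 and 29 in wild type, 2457, 771 and 7255 in Ctnnb1 tumours and 12052, 20923 and 3542 in combined tumours. Its log2 changes of 6.14 (SE 0.85, adjusted p 0.0005) and 8.14 (SE 0.85, adjusted p 0.000125) were the largest of the list. Lgals3, a galectin of macrophages and epithelia, went from 531, 571 and 343 to 4797, 2267 and 3919 and to 4099, 5762 and 8171. Combined library 12, low for most members, was the highest of its group for Lgals3.

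The C1q genes, neighbours on chromosome 4 that encode the 3 chains of the first complement component, moved together. C1qa read 574, 543 and 667 in wild type, 2037, 1505 and 1971 in Ctnnb1 tumours and 5302, 4589 and 1740 in combined tumours. Every tumour library lay above wild type. C1qa, C1qb and C1qc rose by 1.62, 1.82 and 1.67 on the log2 scale in Ctnnb1 tumours, with SE of 0.37, 0.45 and 0.43 and adjusted p of 0.00609, 0.00884 and 0.0109. The rises in combined tumours were 2.55, 2.77 and 2.58, with adjusted p of 0.000634, 0.00112 and 0.0013.

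All 5 Fc receptor genes and adapters rose in both comparisons. Fcgr1 (CD64), the high-affinity receptor for IgG, moved furthest, from 35, 31 and 40 to 164, 151 and 167 in Ctnnb1 tumours and to 895, 574 and 162 in combined tumours. The Ctnnb1 libraries were close to each other and 4.55-fold above wild type (log2 change 2.16, SE 0.54, adjusted p 0.00881), and the combined mean was 15.4-fold above it (3.60, SE 0.54, adjusted p 0.000712). Fcgr2b, the inhibitory receptor, rose 3.11-fold and 10.4-fold, and Fcgr3, the activating one, 2.51-fold and 5.66-fold. These low-affinity receptors share long stretches of sequence, so reads may be split between them. Fcer1g and Tyrobp, adapters that carry their signals, rose by 1.58 and 1.47 in Ctnnb1 tumours and by 2.78 and 2.57 in combined tumours. The calls of Fcgr3, Fcer1g and Tyrobp in Ctnnb1 tumours each failed without at least 3 of the 6 libraries.

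The general phagocyte genes rose for 7 of 7 in both comparisons. Ctss, a lysosomal protease, read 539, 497 and 561 in wild type, 3087, 1831 and 4243 in Ctnnb1 tumours and 8075, 6930 and 2344 in combined tumours. It rose 5.74-fold (log2 change 2.44, SE 0.46, adjusted p 0.00246) and 10.9-fold (3.25, SE 0.46, adjusted p 0.000573). Msr1, the scavenger receptor A for modified lipoproteins, was at 30 in each wild-type library, at 178, 83 and 311 in Ctnnb1 tumours and at 653, 930 and 230 in combined tumours. That is 6.36-fold (2.43, SE 0.58, adjusted p 0.00746) and 20.1-fold (4.07, SE 0.58, adjusted p 0.00059) above wild type. Arg1, an arginine-degrading enzyme used as a marker of alternatively activated macrophages, went from 112, 92 and 124 to 552, 395 and 790 and to 1395, 3836 and 1329. Its rises were 5.30-fold (2.35, SE 0.42, adjusted p 0.00173) and 20.0-fold (4.13, SE 0.42, adjusted p 0.000105). For Arg1, combined library 12 was close to library 10, and library 11 stood above both. Cd68, the lysosomal marker of macrophages, rose by 1.47 and 2.61, Cybb, the NADPH oxidase subunit, by 1.51 and 2.39, Laptm5 by 1.37 and 2.36 and Aif1 (Iba1) by 1.22 and 2.02. In Ctnnb1 tumours the calls of Cybb, Laptm5 and Aif1 held without at most 1 of the 6 libraries, and Cd68 kept its call without any of them.

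The counts in this paragraph stand beside 28.9% of all genes that rose and 29.6% that fell in Ctnnb1 tumours. In combined tumours 28.3% rose and 29.5% fell. Of 23 other genes of phagocyte machinery that were tested, 19 rose in Ctnnb1 tumours and 23 in combined tumours. Of 8 pan-leukocyte genes 5 rose and 1 fell in Ctnnb1 tumours, and 6 rose and 1 fell in combined tumours. The sum of these 8 was nonetheless lower in Ctnnb1 tumours, at 9389 to 10914 against 11758 to 18795 in wild type. In combined tumours it ran from 13043 to 19713. Such a sum follows its most abundant genes and is no measure of leukocyte number. In Ctnnb1 tumours 6 of the 8 lay wholly above wild type and 1 wholly below, as did 35.9% and 35.6% of all genes. The leukocyte antigen Ptprc (CD45), chosen as a check of cell type, went from 268, 297 and 251 to 619, 660 and 770 and to 2770, 1708 and 675. It rose by 1.32 (SE 0.43, adjusted p 0.0276) and 2.44 (SE 0.43, adjusted p 0.00162). All leukocytes carry it. Of 9 T and NK cell markers 7 were measured, and 4 of these rose in each comparison. Their sums were 167 to 185 in wild type, 563 to 659 in Ctnnb1 tumours and 1477, 453 and 283 in combined libraries 10, 11 and 12, with none of the 7 at 0 throughout, and their part was not tested. Among cytokine and activation genes 6 of 9 tested rose and 1 fell in Ctnnb1 tumours, and 7 rose and 1 fell in combined tumours. Tnf read 15, 14 and 10 in wild type, 141, 83 and 154 in Ctnnb1 tumours and 196, 265 and 376 in combined tumours, its log2 changes being 3.15 (SE 0.34) and 4.29 (SE 0.34), with adjusted p of 0.000164 and 3.99e-05.

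Levels set against Csf1r of the same library need no scaling between libraries and show which members moved more or less than the receptor. In Ctnnb1 tumours 21 of the other 33 members stood higher relative to Csf1r in every library than in any wild-type one, as did 9.03% of all genes, and 3 stood lower, as did 69.2%. Among combined tumours 19 stood higher, as did 3.11% of all genes, and 3 lower, as did 67.7%. Marco, which passed the filter on low values only through combined tumours, is among these 19. The 3 lower ones were Il34, Cd163 and Mertk in both. Cd163 was 19.3%, 25.5% and 21.2% of Csf1r in wild type, 1.17%, 6.53% and 1.23% in Ctnnb1 tumours and 1.75%, 1.68% and 1.59% in combined tumours. The combined libraries thus differ little in this ratio although Csf1r itself spans 1260 to 5609 in them. Adgre1 was 27.5%, 25.3% and 23.3% of Csf1r in wild type, 47.8%, 42.2% and 43.5% in Ctnnb1 tumours and 37.4%, 39.4% and 35.4% in combined tumours. Mrc1 overlapped throughout, at 59.9% to 66.2% in wild type, 25.8% to 62.1% in Ctnnb1 tumours and 41.8% to 65.1% in combined tumours. Msr1 went from between 3.11% and 3.91% to between 6.09% and 18.3% and to between 11.6% and 19.1%. All ratios share Csf1r as their divisor, so they are not independent of each other, and no test was made of them.

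**Figure D3:**
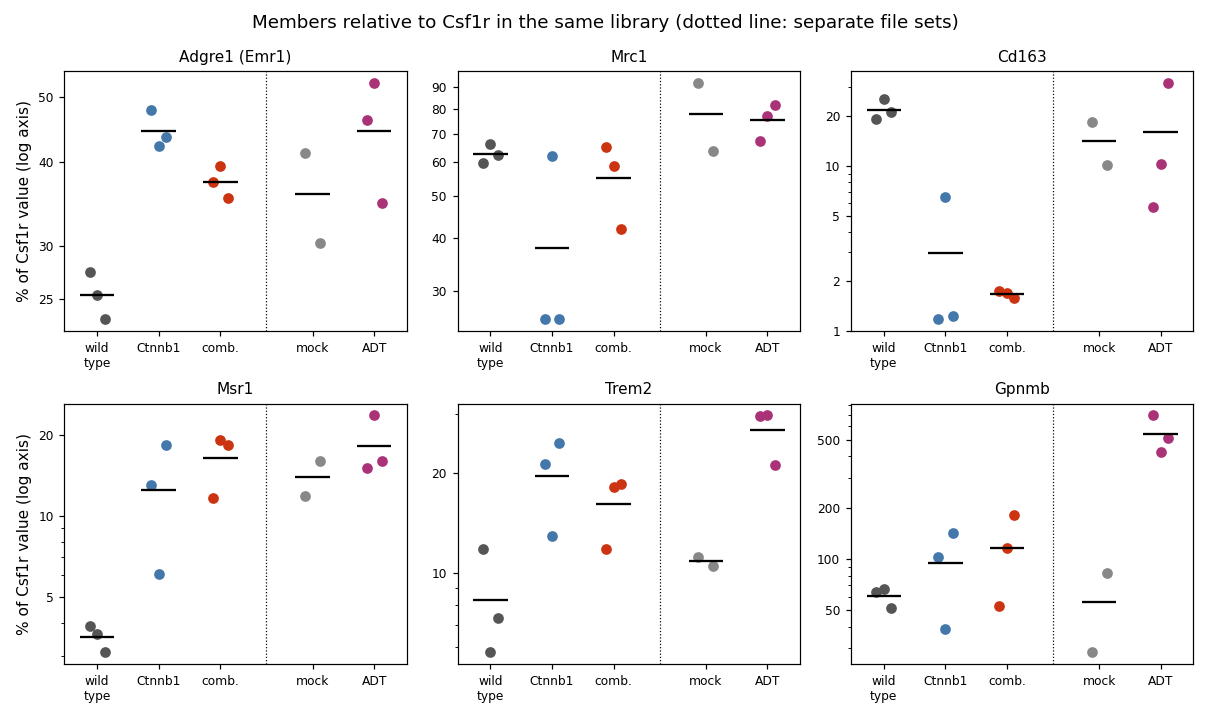
Scaled counts of 6 genes as a percent of Csf1r in the same library (log axis), as points by group with the mean as a bar; the dotted line separates the genotype files from those of the inducible model. Cd163 lies at 19.3% to 25.5% in wild type and at 1.17% to 6.53% in the 6 tumour libraries of the genotype files, and Gpnmb lies at 423% to 694% after ADT.

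In the inducible model the question was what ADT does to these genes in tumours. No member passed the test in limma (0 of 34 higher and 0 of 34 lower, where 0.00859% of 23289 genes tested were higher and 0% lower). At an unadjusted p under 0.05, 5 members were lower and 1 higher, where 8.79% and 7.43% of all genes were. The log2 change was below 0 for 33 of the 34, with a median of -1 against -0.02 over all genes. The ADT libraries lay wholly below the mock ones for 12 members and wholly above for 1, where 16.8% and 16.4% of all genes did. A fit of all 17 libraries, over 13393 genes and 33 of the members, called 1 member higher (Gpnmb) and 2 lower (Csf1 and Mertk), taking its spread from the genotype groups as well. Mock library 1 was the highest of the 5 libraries for 32 of the 34 members and exceeded mock library 2 for all 34, by a median log2 difference of 1.52. Without mock library 1 the median of the members was -0.32, with 29 below 0, and without mock library 2 it was -1.70. With 2 mock libraries this far apart, a value that missed the threshold is not shown to be unchanged.

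Fibroblast and endothelial markers were also higher in mock library 1 than in mock library 2, while epithelial and prostate secretory ones were lower. Fibroblast markers (8 of 8) summed to 601345 in mock library 1, to 118762 in mock library 2 and to 74064 to 428314 after ADT. Endothelial markers (8 of 8) summed to 32803, to 13302 and to 10921 to 11613. Epithelial markers (6 of 6) summed to 100592 and 119383 in mock tumours and to 53138 to 71614 after ADT. Skeletal muscle markers (8 of 8) summed to 11109 and 28300 in mock tumours and to 2378, 152 and 44152 after ADT. Prostate secretory genes (6 of 6) summed to 7987 and 21487 in mock tumours and to 103 to 144 after ADT, with Msmb at 0 in all 3 ADT libraries. The part of these cells in the levels below was not tested.

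Gpnmb (GRCm38 chromosome 6, 49036546 to 49070929) was the one member with a log2 change above 0. It read 2888 and 2597 in the mock libraries and 16589, 9875 and 8047 in the ADT libraries. All 3 ADT values lay above both mock ones, which were close to each other although mock library 1 was high for the rest. The means were 11500 ± 4500 (SD, n = 3) against 2742 ± 206 (SD, n = 2), 4.19-fold, with a log2 change of 2.00 (SE 0.34, adjusted p 0.128 by limma). The change ran from 1.70 to 2.22 when each library was left out in turn, with adjusted p from 0.158 to 0.43, and the fit of all 17 libraries gave an adjusted p of 0.0219. Relative to Csf1r it was 28.5% and 83.1% in mock tumours and 694%, 423% and 512% after ADT. Gpnmb is also made by pigment cells, osteoclasts and some tumour cells, and which cells made it here was not measured.

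The other lipid-associated genes did not share that size. Trem2 read 1138 and 328 in the mock libraries and 710, 695 and 333 after ADT, so the groups overlapped (log2 change -0.16, SE 0.66, adjusted p 0.923). Without mock library 1 its change was 0.74. Apoe read 63962 and 21566 against 30760, 24512 and 40062 (-0.25, SE 0.52, adjusted p 0.851), and 0.53 without mock library 1. Of the 16 other genes of this state 8 had a log2 change above 0 and 8 below, with a median of 0.03. Plin2, the coat protein of lipid droplets, read 2638 and 1509 against 6103, 4163 and 3414 (1.15, SE 0.36, adjusted p 0.239). Abca1, the cholesterol exporter, read 5485 and 3482 against 6824, 7374 and 8579, and Lgals3 4212 and 6247 against 7620, 8175 and 8912. These 3 were the ones of the 16 whose ADT libraries all lay above both mock libraries, and none passed the test.

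The growth signals and recruitment genes all had log2 changes below 0 after ADT, and none passed the test. Csf1 read 3389 and 1934 in mock tumours and 760, 1115 and 959 after ADT. The groups did not overlap (log2 change -1.46, SE 0.31, adjusted p 0.167 by limma), and the fit of all 17 libraries gave 0.00747. Csf1r read 10143 and 3127 against 2389, 2334 and 1573 (-1.45, SE 0.55, adjusted p 0.307). Its ADT values stand close to each other, and most of the gap lies in mock library 1. Cd14 read 2038 and 1911 against 772, 1179 and 739 (-1.17, SE 0.25, adjusted p 0.167), and here the mock libraries were alike. Ccr2 read 2206 and 898 against 780, 678 and 440, while Ccl2, at 545 and 127 against 139, 248 and 138, overlapped, with a log2 change of 0.40 without mock library 1. Il34 read 151 and 103 against 39, 79 and 77 (-1, SE 0.47, adjusted p 0.395).

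Of the 18 other recruited-monocyte genes 15 had a log2 change below 0. S100a4, a calcium-binding protein also of fibroblasts and epithelia, had the highest log2 change of the list and did not pass the test, at 866 and 396 against 8988, 9952 and 5182 (3.72, SE 0.46, adjusted p 0.0999). Il1b read 543 and 647 against 265, 271 and 203, with the mock libraries again alike. Its change was -1.28 (SE 0.23, adjusted p 0.136). Neutrophil markers (9 of 9 measured) summed to 1605 and 3304 in mock tumours and 1265 to 2016 after ADT.

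The resident-type genes all had log2 changes below 0, and none passed the test. Mertk read 2157 and 1099 against 617, 816 and 684 (-1.13, SE 0.34, adjusted p 0.227), with no overlap, and the fit of all 17 libraries gave 0.0118. Mrc1 read 9349 and 1990 against 1609, 1801 and 1286 (-1.48, SE 0.69, adjusted p 0.389), and Adgre1 4188 and 949 against 1105, 1226 and 547 (-1.14, SE 0.75, adjusted p 0.5). For both the distance lies between mock library 1 and all others. Cd163 read 1869 and 317 against 135, 239 and 505. That is 18.4% and 10.1% of Csf1r in mock tumours and 5.65%, 10.2% and 32.1% after ADT, which overlap. Marco read 18 and 5 against 3, 26 and 0. Of the 18 other resident genes 17 had a log2 change below 0, among them Selenop, a selenium carrier that many cells make, at 37531 and 17401 against 7530, 8887 and 7618, and Igf1 at 5056 and 1627 against 878, 833 and 674.

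C1qa read 8533 and 2867 in mock tumours and 3202, 2982 and 1878 after ADT, so the ADT range enclosed mock library 2. Mock library 2 also lay inside the ADT range for C1qb and C1qc, with log2 changes of -0.98 and -0.87 beside -0.92 for C1qa. Log2 changes ran from -1.19 to -0.81 for the Fc receptors and adapters and from -1.33 to -0.30 for the general phagocyte genes, with 2 of 5 and 2 of 7 wholly below mock, beside 16.8% of all genes. Cd68 lay nearest to 0, at 2002 and 615 against 840, 1176 and 735, and at 0.55 without mock library 1. Relative to Csf1r, 17 of the other 33 members stood higher in every ADT library than in either mock one and 0 lower. Of all genes 49.5% stood higher and 1.96% lower by the same measure, so the members' share is near that of genes at large. Arg1 overlapped, at 1987 and 1251 against 419, 1691 and 1010.

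**Figure D4:**
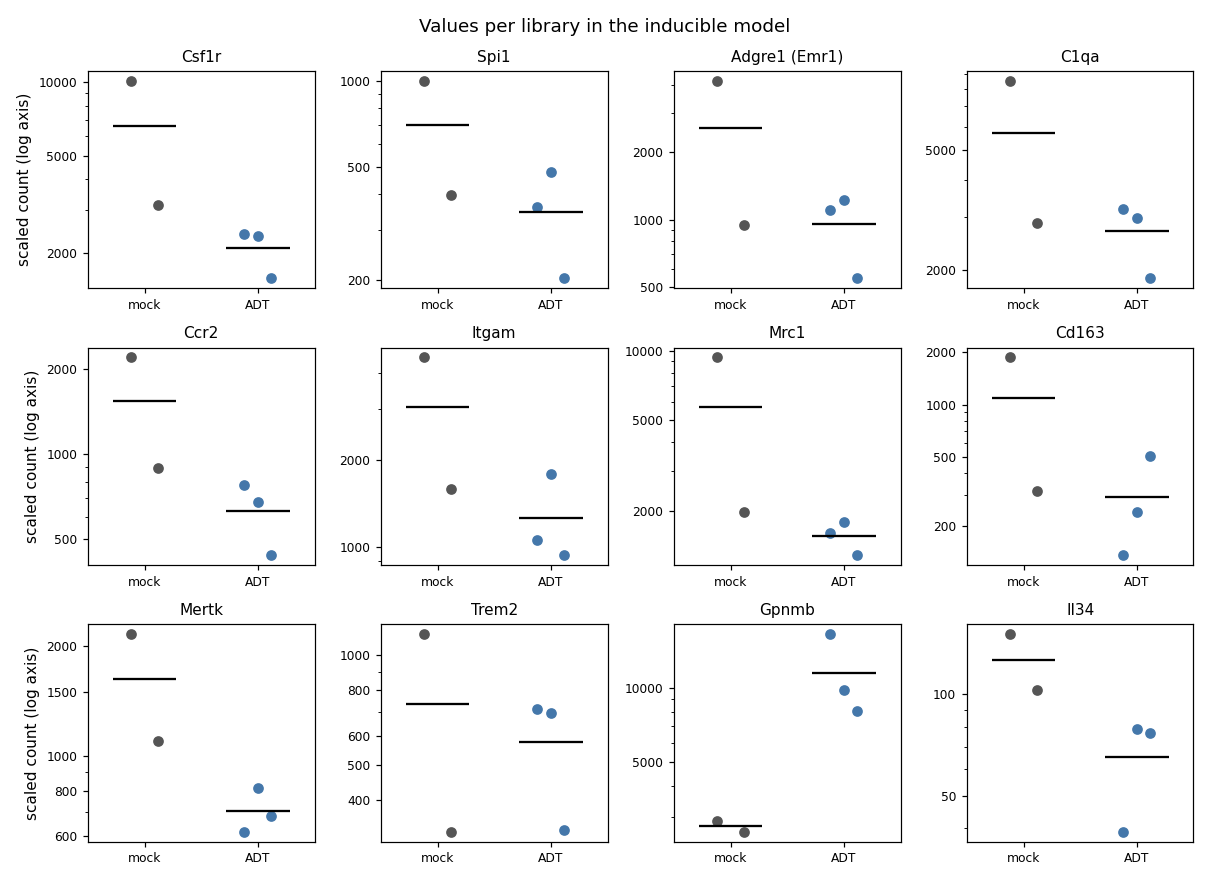
Scaled counts (log axis) of 12 of the genes in the 2 mock and 3 ADT libraries, as points with the group mean as a bar. Mock library 1 is the upper grey point in every panel, and Gpnmb is the panel in which the ADT points, at 8047 to 16589, lie above both mock points.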

How the data were processed

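RNA sequencing of mouse prostate was described in 14 of the series' 17 libraries, the other 3 entering only the alternative fits of 12 and 17 libraries, grouped by the genotype, treatment and age in the labels. Per the submitters' processing notes, the build was GRCm38.p3 and the software DESeq2 1.14.1, HTSeq 0.6.0, R 3.2.3, FastQC 0.11.4, Bowtie2 2.2.6.0 and TopHat2 2.1.0, with no role or setting given. The deposited values are scores: read counts per gene that the authors divided by a factor per library and rounded, as judged from the values. Raw counts were not used here, so the depth behind each value is unknown, and no count model was used.

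Of 15195 features in the genotype files, 631 without an Entrez number, 270 sharing one and 389 repeats were left out, which kept 13905 genes. Of 42847 in the inducible model 39179 were kept after 3668 repeats were left out. Features without an Entrez number held 9.71% to 12.7% of the genotype totals. Values were taken as log2(value + 1), and a gene was tested where its value reached 1 in 3 or more genotype libraries or in 2 or more inducible ones. This left out none of the 13905 genotype genes. The genotype groups were fitted together, mock and ADT apart, with limma 3.58.1 in R 4.3.3 (a trend in the prior variance, Benjamini-Hochberg over all genes), and the code was tested on simulated data.

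The 34 members and the lists were chosen with earlier results of these data known. From each other list the 3 tested genes with the smallest p in a comparison could be named, and Ptprc was taken as a check of cell type. Lyve1 was named besides, as the other resident gene that fell in Ctnnb1 tumours, and Cd36 as the lowest of the other lipid-associated genes there. Positions come from GENCODE M21 and promoters from RefSeq. The further genotype group and the comparison that isolates the further change are not reported here. Alternatives were other added numbers, filters, scalings, prior variances and fits, and each library of the compared groups left out in turn.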

Additional observations from a re-analysis of the deposited data

How the results depend on the processing

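No member that passed the test reversed under any alternative. With 1 library of the compared groups left out, the members that rose in the Ctnnb1 group numbered 13 to 24 and those that fell 1 to 3. Members that rose in the combined group numbered 28 to 31. In fits of the 2 compared groups alone, 27 rose in the Ctnnb1 group and 29 in the combined group. For ADT against mock the members called were 0 in each alternative except the fit of all 17 libraries, which called 1 higher and 2 lower, and over all genes 1237 higher and 1090 lower, where the 5 libraries alone called 2 and 0. Over all genes, ADT calls numbered 38 higher and 22 lower with a mean value of at least 50, 30 and 14 with equal totals, 34 and 17 with upper quartile scaling and 23 and 6 with a robust prior variance. With equal totals, 7797 genes rose and 2086 fell in the Ctnnb1 group (4017 and 4114 as reported), and 7970 and 1758 in the combined group (3936 and 4107). Changes that crossed 0, all in genes that did not pass the test, were, in the Ctnnb1 group, Mrc1 (0.42 with equal totals, 0.02 without wild-type library 3, 0.20 and 0.03 without Ctnnb1 library 13 and 15), Ccr2 (-0.09 without Ctnnb1 library 14) and Marco (-0.33 without library 15). In the combined group Il34 was at 0.17 with equal totals and 0.24 without library 12. Without mock library 1, Ccl2 was at 0.40, Trem2 at 0.74, Apoe at 0.53 and Cd68 at 0.55, and Trem2 was at 0.20 without ADT library 3. When each library was left out in turn, the highest change of Ccr2 in Ctnnb1 tumours was 0.36, the lowest of Mrc1 -0.44 and the highest of Marco 1.07, and the lowest of Il34 in combined tumours was -0.74. For ADT the lowest were -1.69 for Ccl2, -1.05 for Trem2, -1.04 for Apoe and -1.15 for Cd68. The cause was not tested.

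The mock and ADT libraries share replicate numbers that the labels do not tie to a shared animal or day. Deviations of mock library 1 from its group mean correlated across genes at 0.22, -0.12 and -0.14 with those of ADT libraries 1, 2 and 3. With 2 mock libraries these deviations mirror each other, so mock library 2 gave -0.22, 0.12 and 0.14. Such values cannot show or exclude pairing. Replicate number 3 occurs only in ADT, so a block on the number takes ADT library 3 out of the comparison. With that block 0 members were called in either direction. The median of the members was -0.75 and Trem2 changed by 0.20, both as without ADT library 3. The block left 0 genes called in all, as did leaving out ADT library 3, so it cannot decide on pairing either.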
